A study of Mus musculus with 28 samples.

Results

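In neural stem cells, 176 of 23449 wild-type H3K4me3 peak summits (0.751%) lay beside methylated DNA and had an H3K4me3 summit nearby in Smchd1 null cells as well. These summits, called members here, were chosen from the authors' peak lists by distance alone: a null H3K4me3 summit within 1 kb, and a summit of captured methylated DNA within 500 bp in each of the 2 methylation lists. A summit is the single position at which a peak is highest. Their scores and distances in those 4 lists chose the members, so they are given below as a description. Gene position, Ctcf, H3K27me3, Smchd1 and promoter sequence were not used to choose them.

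The cells were cultures grown from brains of male E14.5 mouse embryos of C57BL/6 x FVB/N strain, either wild type or homozygous for the MommeD1 allele of Smchd1, called Smchd1 null in the labels. H3K4me3 and H3K27me3 were mapped by chromatin immunoprecipitation (ChIP) in 2 libraries of each genotype, and methylated DNA was captured with beads bearing the MBD2 protein's methyl-CpG binding domain (MBD) in 3 libraries of each. Smchd1 ChIP from wild-type cells was called against the same ChIP in null cells, at thresholds of 5e-4 and 5e-3. Ctcf ChIP came from wild-type cells left untransduced, wild-type cells given a control short hairpin RNA (the non-silencing shRNA) and null cells, each called against wild-type cells with Ctcf shRNAs. Every list pools the libraries of its group, so no value has a replicate error and no test between genotypes was possible. The labels of the MBD samples conflict: those with null in their title point to the list with WT in its name, and those titled wild type to the list with D1 in its name. The lists are therefore called WT-named and null-named, and no direction between genotypes is drawn from them. The histone and MBD lists were called against the whole cell extract of a genotype, so a place that is unusual in that extract can be called in several lists.

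H3K4me3 is the mark of active and poised promoters, and it is usually absent where CpG sites are methylated, because the enzymes that methylate DNA bind histone H3 tails that lack it. Imprinted control regions are the textbook exception: at these elements the allele from one parent is methylated and the other carries H3K4me3, so a population of cells gives both signals at the same place. A protein that binds a methylated TGCCGC motif, Zfp57, helps to keep the methylated allele methylated. ChIP and MBD capture cannot tell alleles or cells apart: H3K4me3 and methylation of the same molecules, of different alleles and of different cells give the same pair of summits.

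Promoters of imprinted genes with a member were read from RefSeq (build GRCm38.p6, the assembly of mm10), and 5 are printed to show promoter sequence next to such summits. Each line holds the 250 bases before the annotated start, 5′ to 3′ on the gene's strand, with capitals for TGCCGC or its reverse complement GCGGCA. The promoters of Mcts2 (chr2:152686898-152687147, plus strand), Mest (chr6:30737800-30738049, plus strand) and Nap1l5 (chr6:58907127-58907376, minus strand) hold the motif, and those of Peg3 (chr7:6730420-6730669, minus strand) and Igf2r (chr17:12769707-12769956, minus strand) do not.
Mcts2: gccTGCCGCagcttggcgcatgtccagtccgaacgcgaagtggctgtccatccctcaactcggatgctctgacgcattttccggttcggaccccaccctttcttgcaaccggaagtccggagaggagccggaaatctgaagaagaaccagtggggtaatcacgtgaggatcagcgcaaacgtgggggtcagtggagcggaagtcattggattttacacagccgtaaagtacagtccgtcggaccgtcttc
Mest: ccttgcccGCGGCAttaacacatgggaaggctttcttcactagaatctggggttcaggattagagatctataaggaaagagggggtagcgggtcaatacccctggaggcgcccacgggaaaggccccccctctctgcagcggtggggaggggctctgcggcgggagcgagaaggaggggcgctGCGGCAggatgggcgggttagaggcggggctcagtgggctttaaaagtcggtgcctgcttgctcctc
Nap1l5: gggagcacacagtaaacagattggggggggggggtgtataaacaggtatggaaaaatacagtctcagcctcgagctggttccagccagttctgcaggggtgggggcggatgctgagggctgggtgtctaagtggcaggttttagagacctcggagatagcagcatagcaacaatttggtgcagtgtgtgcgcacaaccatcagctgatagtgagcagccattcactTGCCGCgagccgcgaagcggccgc
Peg3: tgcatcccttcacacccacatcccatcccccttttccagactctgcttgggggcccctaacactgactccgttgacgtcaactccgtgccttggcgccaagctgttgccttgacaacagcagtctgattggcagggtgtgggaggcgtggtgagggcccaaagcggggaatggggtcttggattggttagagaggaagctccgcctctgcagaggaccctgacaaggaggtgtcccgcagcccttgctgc
Igf2r: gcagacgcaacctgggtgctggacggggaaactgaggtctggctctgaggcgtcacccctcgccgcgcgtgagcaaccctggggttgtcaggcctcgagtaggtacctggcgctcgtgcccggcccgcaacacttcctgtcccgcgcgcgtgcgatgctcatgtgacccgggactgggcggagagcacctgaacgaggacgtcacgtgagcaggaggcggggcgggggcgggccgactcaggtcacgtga
The member summits lay 165 bp (Mcts2), 263 bp (Mest), 184 bp (Nap1l5), 197 bp (Peg3) and 115 bp (Igf2r) from these starts, outside the printed stretches. Over the whole 300-base window, which adds 50 bases after the start, 6 of 12 windows within 1 kb of an imprinted member held the motif (50%, exact 95% interval 21.1 to 78.9). They belong to Mest, with 2 overlapping windows, Nnat, Mcts2, Nap1l5 and Snrpn, which are 5 of the 9 genes with a window. The motif stood in 11.6% of all RefSeq promoter windows and in 21.5% (20.8 to 22.2) of those beside a shared H3K4me3 summit with no MBD summit within 500 bp in either list. Promoters of the other members held it in 10 of 88 windows (11.4%, 5.59 to 19.9). A match is a run of letters and not a measured binding site.

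Listed imprinted genes accounted for 26 of the 176 members (14.8%, exact 95% interval 9.88 to 20.9, which covers counting error only, as all intervals here do), against 0.444% of all wild-type H3K4me3 summits and 0.285% of shared summits with no MBD summit. A member was counted to a gene when it lay in it or within 10 kb of either annotated end. The 26 members fell into 16 loci, of which 11 held 1 member. Of the 68 imprinted genes of the lists that were annotated, 26 had a member. By the parent whose allele carries the germline mark, 24 of 32 genes of maternally methylated regions had one, against 1 of 7 genes of paternally methylated regions (H19) and 1 of 29 other imprinted genes (Cdkn1c). Neighbouring genes can share a member, as H13 and Mcts2 or Igf2r and Airn do, so these are counts of genes and not of marked regions. A member within 10 kb of a gene need not lie at the germline mark. Among all coding genes, 1.08% had a member by the same 10 kb rule, or 1.61% of those with an H3K4me3 summit there. Seen from the mark, 25% of the 104 wild-type H3K4me3 summits at listed imprinted genes were members.

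Several loci held runs of members over both kinds of signal. Mest, a paternally expressed gene for a hydrolase-like protein of embryonic mesoderm, held the longest run, with 4 members over 3101 bp of chromosome 6 (30735441 to 30738542). Their H3K4me3 scores were low, from 5.80 to 10.3 in wild-type and from 5.37 to 11.2 in null cells. A score is the −log10 p-value (or q-value) that the authors' peak caller gave the peak, and it ranks summits only within its own list. A member's null and MBD scores are those of the nearest summit in each list, which for null H3K4me3 was up to 932 bp away. WT-named MBD scores at Mest ran from 15.7 to 37.8 and null-named ones from 4.79 to 36.8. At the shared start of Peg3, which encodes a zinc finger protein, and Usp29, a ubiquitin protease gene read the other way, 3 members lay over 1584 bp of chromosome 7 (6729325 to 6730909). H3K4me3 there scored 13.1 to 27 in wild-type and 10.3 to 24.2 in null cells, and WT-named MBD 10.5 to 46.1. The span of Gnas, the gene of a stimulatory G protein subunit with several alternative promoters, held 4 members in 2 places, at 174295278 and 174295745 and at 174327560 and 174329502 of chromosome 2. These scored 16.4 to 24.2 for H3K4me3 in wild-type cells, 5.86 to 29.2 in null cells and 34.1 to 44.3 for WT-named MBD. Nnat, a small membrane protein gene inside an intron of Blcap, held 2 members, and so did Inpp5f, a phosphoinositide phosphatase gene.

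The loci with a single member included genes that lie inside a host gene. Peg13, a noncoding RNA gene within Trappc9, had the highest H3K4me3 score of the imprinted members in the wild-type list, 28.9 (17.7 in the null list), with MBD scores of 51.6 (WT-named) and 42.7 (null-named) at chromosome 15, 72810209. Here and at the following loci the wild-type value is given before the null value, and the WT-named before the null-named. Mcts2, a retrogene within H13, had a member at 152687313 of chromosome 2 with H3K4me3 scores of 12 and 10.9 and MBD scores of 34.5 and 31.6. The Nap1l5 member, in its host Herc3 at 58906942 of chromosome 6, scored 21.6 and 18.2 for H3K4me3 and 34.8 and 38.4 for MBD. All 3 of these summits lay within the smaller, inner gene.

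Imprinted noncoding RNAs and their neighbours were represented as well. At Kcnq1ot1, the antisense RNA that silences its cluster in cis, the member lay at 143295373 of chromosome 7. It scored 21.9 and 25.5 (null summit 724 bp away) for H3K4me3 and 34.1 and 40.3 for MBD. The member at H19, a growth-restraining noncoding RNA gene, lay 2367 bp beyond the gene on the upstream side, at 142580513 of chromosome 7, where the paternally methylated control region of H19 and Igf2 is known to be. It scored 14.3 and 9.32 for H3K4me3 and 20.9 and 26.4 for MBD. At Igf2r, the receptor that clears insulin-like growth factor 2, the member lay at the gene's own start (12769591 of chromosome 17) and not at the start of its antisense RNA Airn. H3K4me3 there scored 17.4 and 30.2, and MBD 19.8 and 24.9, in the lower part of the imprinted range.

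The remaining single members were at Grb10, Cdkn1c, Impact, Peg10 and Snrpn. Grb10, a growth-restraining adaptor gene, had the lowest wild-type H3K4me3 score of the imprinted members, 4.54 (6.98 in the null list), beside MBD scores of 26.8 and 43.6. Cdkn1c, which encodes the cell cycle inhibitor p57, scored 9.52 and 13.7 for H3K4me3 and 49.0 and 32.5 for MBD. Impact, a regulator of the translational stress response, scored 20.1 and 24.2 for H3K4me3 and 49.0 and 45.1 for MBD. Peg10, a retrotransposon-derived gene, and Sgce, which encodes epsilon-sarcoglycan, share a start on chromosome 6. Their member (4747788) scored 22.9 and 21.5 (null summit 799 bp away) for H3K4me3 and 43.8 and 42.0 for MBD. Snrpn, a spliceosome protein gene, had its member at 60004697 of chromosome 7, with scores of 25.6 and 20.1 for H3K4me3 and 23.1 and 21.9 for MBD.

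**Figure D1:**
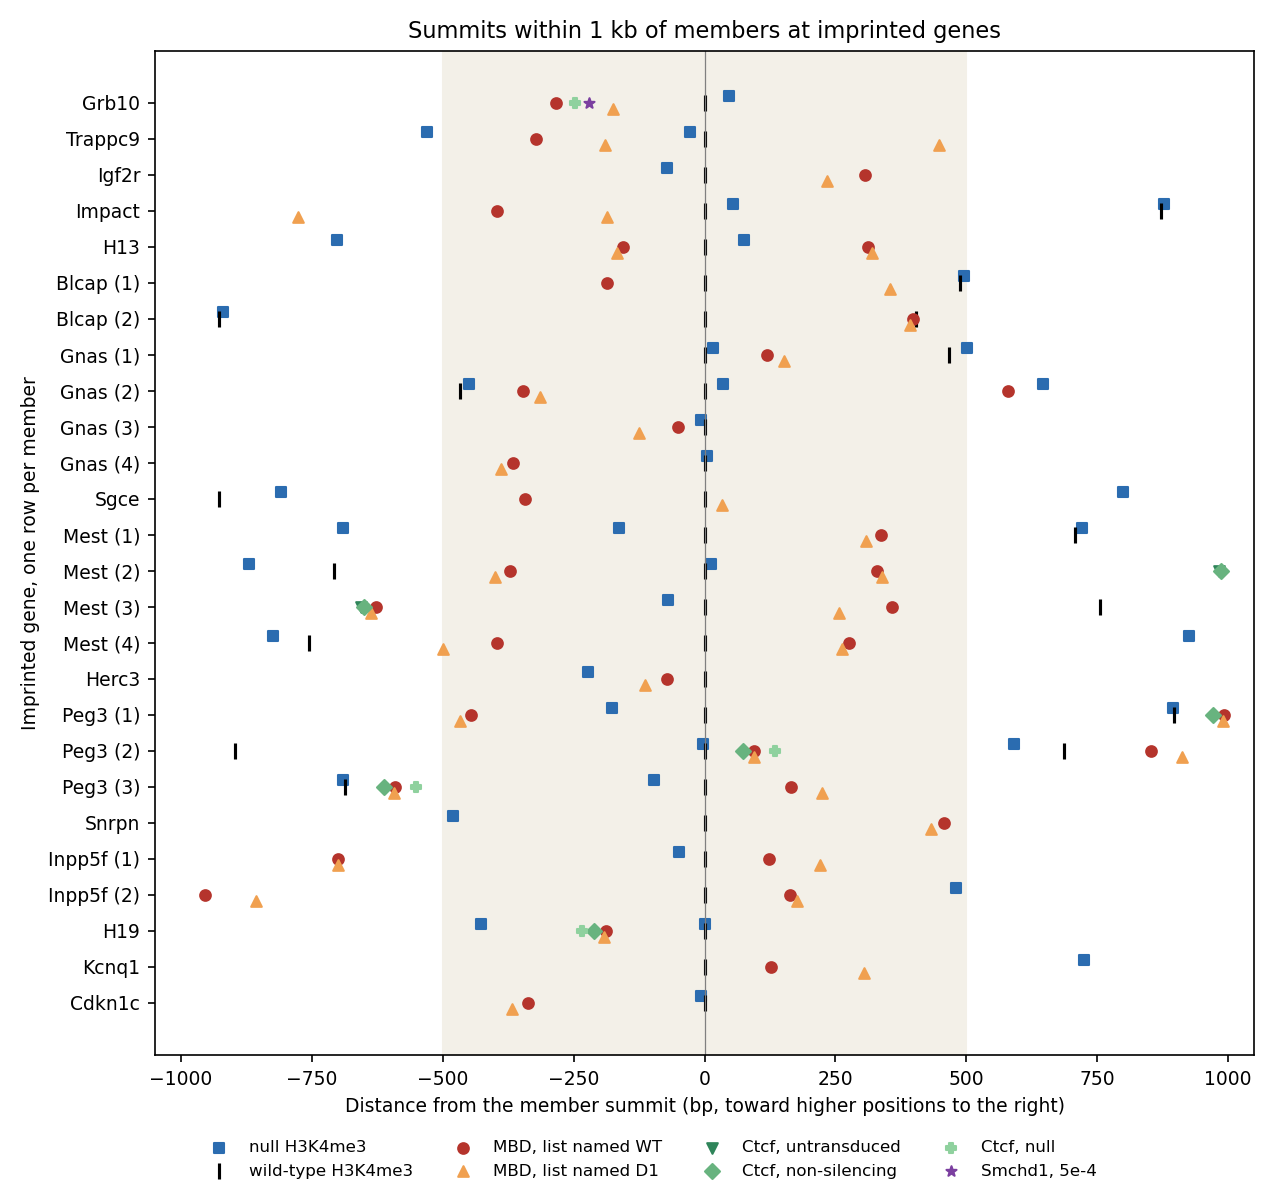
Each row is 1 member at an imprinted gene (labelled by the listed imprinted gene that begins at the lowest position, so that Mcts2 stands under H13, Nap1l5 under Herc3, Peg13 under Trappc9, Nnat under Blcap, Peg10 under Sgce and Usp29 under Peg3), and symbols mark the summits of each list by distance in bp, with the shaded band at 500 bp on either side. MBD summits of both lists sit inside the band in every row because the rule asks for it. Only summits within 1 kb are drawn: Ctcf summits appear in the Grb10, Mest, Peg3 and H19 rows only, and the single Smchd1 summit (5e-4) is that of Grb10.

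Imprinted genes without a member fell into 2 kinds. For 19 of the 68 genes, among them Slc38a4, Cdh15, Igf2, Meg3, Dlk1 and Zdbf2, the wild-type list held no H3K4me3 summit in the gene or within 10 kb, and 18 of these 19 had MBD summits in both lists. The MBD lists are long (156188 and 126631 summits) and the share over all genes was not set beside this count, so it is no result about these genes. A further 23 had H3K4me3 but no member. At imprinted genes, 8 shared H3K4me3 summits had an MBD summit within 500 bp in only 1 list, 5 of them in the WT-named list. Over all genes there were 109 such summits, 93 in the WT-named and 16 in the null-named list only. Summits of the WT-named list alone are thus not particular to imprinted genes. At Plagl1, a zinc finger gene, and the noncoding RNA gene Hymai (13091216 of chromosome 10, H3K4me3 score 24.2) the null-named MBD summit was 11 bp away and the WT-named one 626 bp. At Zrsr1, a retrogene in Commd1, the distances were 687 bp (WT-named) and 448 bp (null-named). In the Snrpn cluster, summits at 60391230 and 60391630 within Snrpn and those near Ndn and Mkrn3 had WT-named MBD at 144 to 230 bp, and their nearest null-named summit was between 12700 and 24261 bp away. Because the MBD labels conflict, these differences are not assigned to a genotype.

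The members as a whole had lower H3K4me3 scores than other summits. Over the 176 members the median wild-type score was 11.3 (lowest 3.56, highest 58.0), against 26.5 over all wild-type summits and 28.7 over shared summits with no MBD. In the null list the members' nearest summits had a median of 12.9 (4.08 to 161), against 24.6 over the whole list. MBD scores were close to those of their lists, with medians of 21.7 against 20.1 (WT-named) and 17.5 against 18.4 (null-named). The 26 imprinted members had higher medians than the other 150 in all 4 lists: 16.9 against 10.4 and 17.7 against 12.5 for H3K4me3, and 34.3 against 19.6 and 31.8 against 16.3 for MBD. Of the imprinted members, 21 of 26 had a WT-named MBD score of at least 20, as did 95 of all 176. As a description over the 176 members, which share lists and neighbouring positions, Spearman's rho was 0.61 between the H3K4me3 scores of the genotypes, 0.83 between the MBD lists and -0.20 between wild-type H3K4me3 and WT-named MBD.

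**Figure D2:**
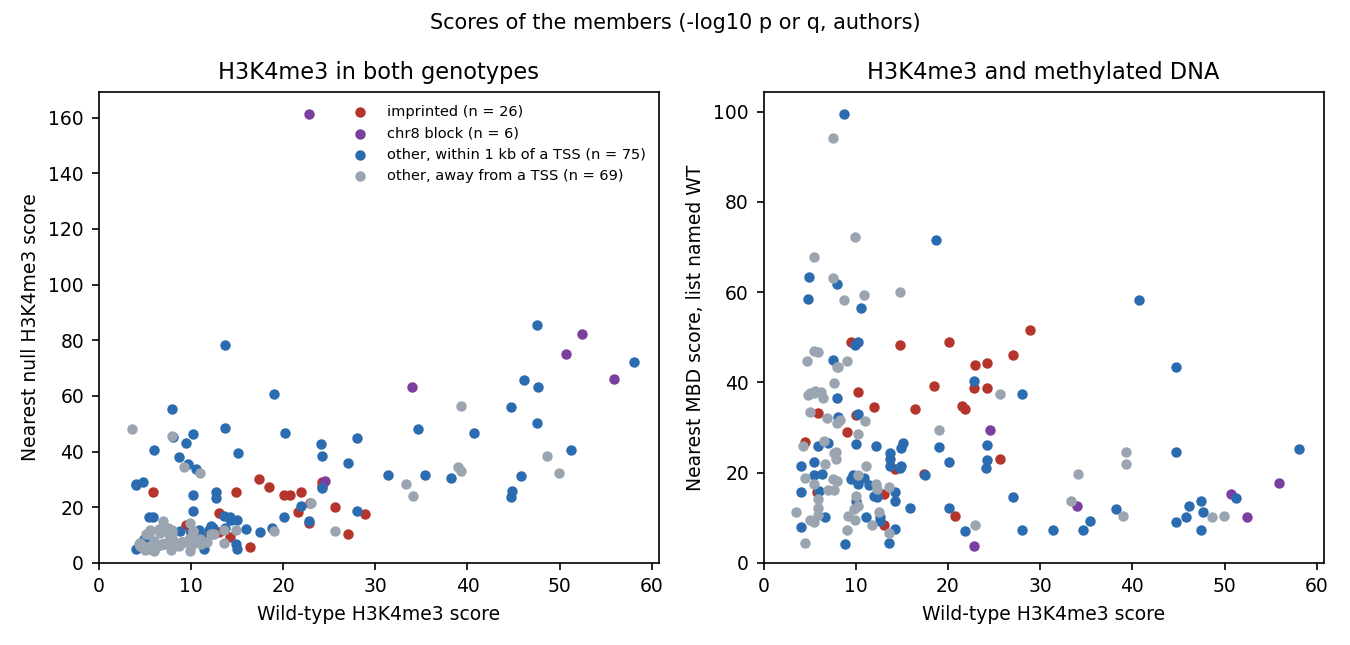
Each point is a member; both panels have the wild-type H3K4me3 score on the horizontal axis, with the null H3K4me3 score (left) or the WT-named MBD score (right) on the vertical axis, all as the authors' −log10 p or q. Most members away from a start have H3K4me3 scores under 20, the imprinted members have H3K4me3 scores of at most 28.9 in the wild-type and 30.2 in the null list and mostly MBD scores above 20, and the highest null score, 161, belongs to a member of a block on chromosome 8.

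The rule itself capped the distances between summits of H3K4me3 and methylated DNA at 500 bp. These distances were not compared with an even spread within that limit, so they describe the members and are no result about separation. The median distance was 298 bp to the WT-named and 278 bp to the null-named MBD summit, and both MBD summits lay on the same side of the H3K4me3 summit in 167 of 176 members. The H3K4me3 summits of the genotypes were within 100 bp of each other for 103 members, with a median distance of 62.5 bp, and the nearest summits of the MBD lists were within 100 bp of each other for 162. Both MBD summits were within 100 bp of the H3K4me3 summit in 35 members. Only 1 of these 35 was imprinted, while 18 were at other starts, 15 were away from starts and 1 was in the chromosome 8 block. At imprinted members the WT-named MBD summit was 51 to 458 bp away, with a median of 294.5 bp.

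The members around the distance limits show how sharp they are. By the larger of their MBD distances, the last members inside were near Fign (481 and 499 bp), Reep1 (499 and 492 bp) and Oscp1 (494 and 426 bp), and the first summits outside were near Ndufa9 (504 and 497 bp), Lrrtm3 (484 and 514 bp) and Krt78 (515 and 509 bp). For the null H3K4me3 limit, Rad54l2 (932 bp), Cd93 (921 bp) and a Nnat summit (919 bp) were inside, and Noc2l (1064 bp), Wnt5a (1129 bp) and another Nnat summit (1322 bp) outside. Shared summits whose farther MBD summit lay within 100 bp numbered 35, the next 100 bp bins up to 500 bp held 31, 20, 43 and 47, and those from 500 to 1000 bp held 70, 97, 139, 142 and 170. There was no gap in this distribution at the 500 bp limit.

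**Figure D3:**
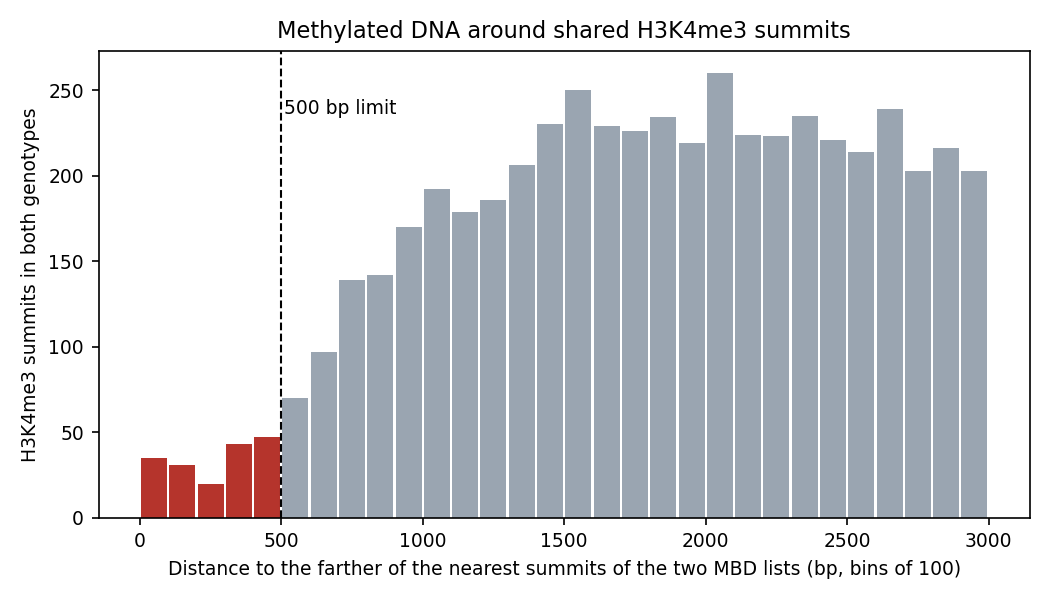
Bars count shared H3K4me3 summits by the distance in bp, in bins of 100, to the farther of the nearest WT-named and null-named MBD summits; red bars are the 176 members and the dashed line is the 500 bp limit. The count is 35 in the first bin, lowest at 20 in the bin from 200 to 300 bp, rises through the limit to 170 in the bin below 1000 bp, and stays between 179 and 260 from 1000 to 3000 bp.

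A smaller share of members than of H3K4me3 summits with no MBD summit nearby was at gene starts. A RefSeq transcription start lay within 1 kb of 86 members (48.9%, 41.3 to 56.5), against 62.3% of all wild-type H3K4me3 summits and 65.8% of shared summits with no MBD. Either end of a coding gene lay within 2 kb of 97 members (55.1%, 47.4 to 62.6), against 71.3% of all and 74.7% of shared summits with no MBD. For genes of any type the count was 120 (68.2%), against 78.2%. The gene table gives no exons, introns or untranslated regions, but 128 members lay within the span of a coding gene. The share over all H3K4me3 summits was not set beside this count, so it is no result about members. Apart from the 26 imprinted members and the 6 of the chromosome 8 block, 75 members (42.6%) were within 1 kb of a start and 69 (39.2%) were not. Of the 86 members at starts, 57 had their WT-named MBD summit downstream of the start and 29 upstream. The H3K4me3 summits also had a median position downstream, at 140.5 bp from the start, beside 147.5 bp for MBD. No such count was set beside these for other summits at starts. The windows at these starts were GC-rich: their median CpG observed over expected was 0.77, against 0.79 at starts beside shared summits with no MBD and 0.38 over all windows.

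The member with the highest wild-type H3K4me3 score was at the start of Nusap1, a spindle protein gene (119618351 of chromosome 2), with H3K4me3 scores of 58.0 in wild-type and 72.2 in null cells and MBD scores of 25.1 and 20.8, and its MBD summits were 42 and 37 bp away. The next included Rnf7, a subunit gene of cullin ubiquitin ligases (51.2 and 40.7), Gmeb2, a DNA-binding transcription factor gene (49.9 and 32.4), Rrs1, a ribosome assembly factor gene (48.6 and 38.3), Rps2, a ribosomal protein gene (47.7 and 63.2), Cdk4, the cyclin-dependent kinase gene of early cell cycle (47.5 and 50.3), and Mtch2, a mitochondrial outer membrane protein gene (47.5 and 85.6). Their MBD scores were lower than that of Nusap1, from 7.25 to 14.3 in the WT-named list. The other 3 of the top 10 were in the chromosome 8 block. At Gmeb2, 3 members formed a run of neighbours at most 2 kb apart, the only such run of 3 or more outside imprinted genes. All 3 lay around the same single MBD summit of each list (scores 10.5 and 10.2), so the run is 1 methylated site.

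The highest MBD scores belonged mostly to members with low H3K4me3 scores in the wild-type list. The strongest in the WT-named list, 99.5 (66.6 null-named), lay in Rad51c, a gene of recombination repair, within 2 kb of an end of Tex14, which encodes a protein of the bridges between germ cells. Its H3K4me3 score was 8.73 in the wild-type list, and the nearest null summit, 355 bp away, scored 38.0. Zfp978, a zinc finger gene, followed with 94.0 and 53.3, and Asb2, a ubiquitin ligase adaptor gene, with 72.2 and 62.4. Tmem267, a membrane protein gene, had the highest null-named score, 81.2 (71.5 WT-named). Wild-type H3K4me3 scores were 7.53 at Zfp978, 9.90 at Asb2 and 18.8 at Tmem267. Further down were Tex15, a gene required in male meiosis (63.2 and 34.1), Tekt2, a tektin gene of the sperm tail (61.7 and 43.6), and Mrps6, a mitochondrial ribosome gene (67.7 and 46.1). Ndufc2, a respiratory complex I gene, was unusual among them in having high scores of both kinds, 40.7 and 46.8 for H3K4me3 and 58.2 and 49.99 for MBD. The other genes of the top 10 of either MBD list were Naif1, Trim24, Sfi1, Impa2, Gm10044 and Htatip2, with WT-named scores from 39.9 to 63.2.

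Of the other gene lists, only that of germ-cell genes held genes with a member within 2 kb of an end. Within 2 kb of a gene end, a member was found for 0.525% of all coding genes and 0.901% of those with an H3K4me3 summit. Of 30 germ-cell genes known to be silenced by methylation, 2 had a member (Tex14 and Tex15), where 4 had a wild-type H3K4me3 summit at an end. The Tex14 member lies in its neighbour Rad51c, and this count of 2 was not tested. The count was 0 of 60 developmental transcription factor genes, 0 of 39 Hox genes, 0 of 20 neural stem cell markers and 0 of 16 housekeeping genes. It was also 0 of 16 neuronal, 0 of 10 glial and 0 of 12 blood and endothelial markers and 0 of 15 genes of the methylation machinery. At the background share, lists of this length give 0 members in most cases, so these zeros are no result about the lists. The imprinted lists were counted above by the wider 10 kb rule. Within 2 kb of an end, 12 of 32 genes of maternally methylated regions, 0 of 7 of paternally methylated regions and 1 of 29 others had a member. By the 10 kb rule, the lists just named gained 1 neural stem cell marker, Sox2, and 1 housekeeping gene, Polr2a. H3K4me3 itself was counted on the same lists: it stood at an end of 19 of 20 neural stem cell markers in wild-type and 18 in null cells. In wild-type cells it stood at 11 of 16 neuronal, 2 of 10 glial and 4 of 12 blood and endothelial markers. The wild-type count was 15 of 16 for housekeeping genes and 12758 of 21887 for all coding genes, so these counts do not by themselves identify the cells.

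Members were found on every chromosome but Y. Chromosome 2 held 26, chromosome 7 held 22, chromosome 11 held 18 and chromosome 6 held 16, and these are 1.45%, 1.31%, 0.956% and 1.39% of their wild-type H3K4me3 summits. X held 2 (0.247%), in cells of male embryos. The members had 159 different nearest coding genes, and when neighbours at most 2 kb apart were joined they formed 160 places, 12 of which held 2 or more.

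Ctcf, the zinc finger protein of insulators and chromatin loops, was about as frequent near members as near other H3K4me3 summits. A summit lay within 1 kb of 16 members in the untransduced list (9.09%, 5.29 to 14.3, against 8.23% of all wild-type H3K4me3 summits), of 24 in the non-silencing list (13.6%, 8.94 to 19.6, against 14.3%) and of 21 in the null list (11.9%, 7.54 to 17.7, against 10.4%). The background lay within each interval. Of all members, 29 (16.5%) had Ctcf in any list, against 16.9%, and 11 (6.25%) in all 3, against 5.43%. Without the 6 members of the chromosome 8 block the counts were 10 (5.88%), 18 (10.6%) and 15 (8.82%), and 5 (2.94%) in all 3 lists. The Ctcf lists differ in length, 8292, 20483 and 11920 summits, and share the control cells, so no change between them is read from these counts.

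At imprinted members, Ctcf stood within 1 kb at 4 loci. In any list this was 7 of 26 members (26.9%, 11.6 to 47.8), against 16.9% of all wild-type H3K4me3 summits. The share was similar, 18 of 69 (26.1%), at shared H3K4me3 summits of listed imprinted genes that were not members, so it is not particular to members. It was 22.9% at shared summits with an MBD summit in only 1 list. Members of 1 locus can share a Ctcf summit, so they are not independent and the interval is too narrow. At H19 a summit was 211 bp away in the non-silencing list (score 14.7) and 234 bp in the null list (4.47), and there was none within 1 kb in the untransduced list. All 3 Peg3 and Usp29 members had the same non-silencing summit within 1 kb (score 9.76), 74 bp from the nearest of them, and 2 had one in the null list (8.38). At Mest 2 members had a summit in the untransduced (8.42) and non-silencing (16.4) lists, and Grb10 had one only in the null list (9.12, 248 bp). None of the 26 imprinted members had Ctcf in all 3 lists within 1 kb. This absence depends on the limit, because some summits lay just outside it. The Peg13 member had summits of all 3 lists at 1006 to 1032 bp. The Inpp5f member at 128689328 of chromosome 7 had them at 1043 to 1083 bp. Members with a summit of every Ctcf list within 250 bp numbered 6, and their nearest coding genes were 4930467E23Rik and 9530057J20Rik of the chromosome 8 block, Tekt2, Zfp219, Gm525 and Ppp1r13l. An exact match to the Ctcf core consensus on either strand was found in 0 of 100 promoter windows within 1 kb of a member, and in 0.0366% of all windows, so this search says little about the members.

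**Figure D4:**
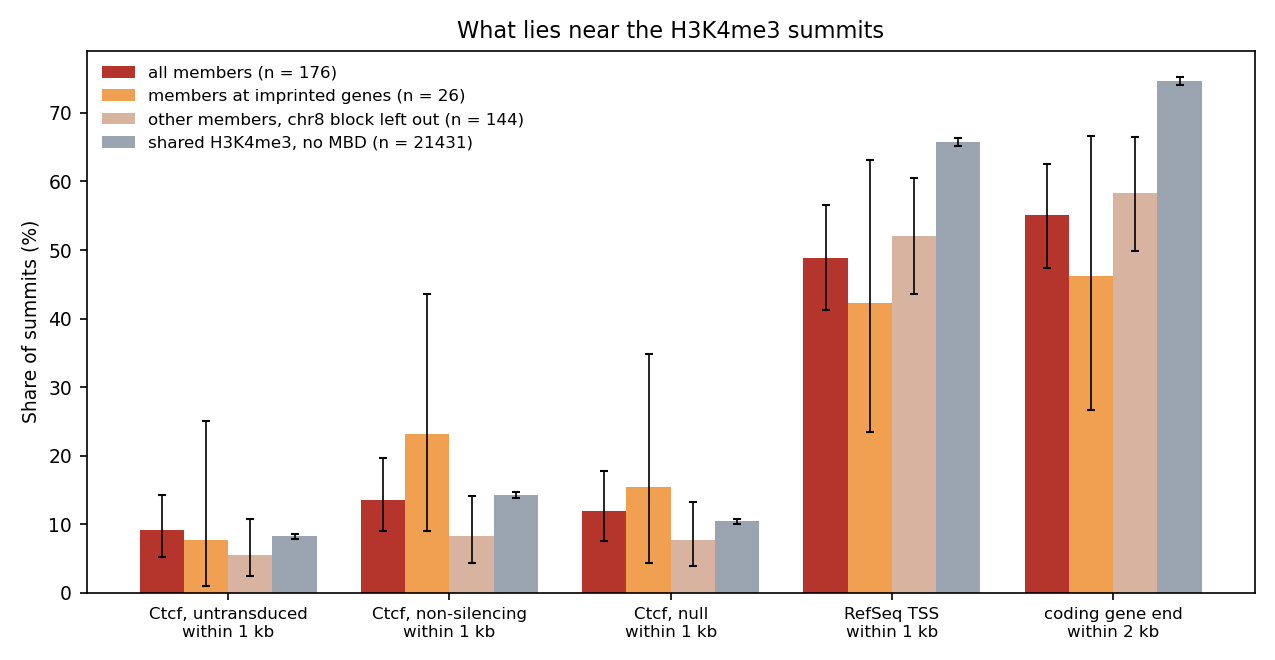
Bars give the percentage of H3K4me3 summits with a Ctcf summit or RefSeq start within 1 kb, or a coding gene end within 2 kb, for all members, members at imprinted genes, other members without the chromosome 8 block, and shared summits with no MBD; error bars are exact 95% binomial intervals. For Ctcf the bars of all members and of summits with no MBD are close (13.6% beside 14.2% in the non-silencing list), and for starts and gene ends the members stand lower (48.9% beside 65.8%, and 55.1% beside 74.7%).

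H3K27me3, the mark of Polycomb repression, was listed near none of the members. The count within 1 kb was 0 of 176 in the wild-type list (exact interval up to 2.07%), against 0.333% of all wild-type H3K4me3 summits, and 0 of 176 in the null list, against 0.0171%. With backgrounds this low and lists of 732 and 77 summits, a lower share at members was not detectable.

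Smchd1, the chromatin protein missing from the null cells, had a summit of the 5e-4 list within 1 kb of 3 members (1.70%, 0.353 to 4.90), against 0.670% of all wild-type H3K4me3 summits. The share was higher than at members in 2 similar groups. It was 6 of 109 (5.50%) at shared summits with an MBD summit in only 1 list. At shared summits of listed imprinted genes that were not members it was 4 of 69 (5.80%). The summit at Grb10 was 220 bp away with a score of 6.61. The others were at the start of Srsf10, a splicing regulator gene, where the Smchd1 summit was 471 bp away (score 5.01), and at 19980115 of chromosome 8, where it was 140 bp away (score 6.37). In the longer 5e-3 list the count was 7 (3.98%), against 2.08%, and the 4 added members lay near Zfp978, Zcwpw1 and Zfp180 and at 20122771 of chromosome 8. The interval of the 5e-4 share includes the background, and the share was 0.504% with MBD summits allowed within 1 kb and 0 of 77 members with them within 250 bp.

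A stretch of chromosome 8, picked out after its values were seen, held 6 members between 19784802 and 20550495 that stood apart from the others. All 6 wild-type H3K4me3 summits in the stretch were members, and all 6 had a Ctcf summit within 1 kb in each of the 3 Ctcf lists. Their H3K4me3 scores were high, 22.8 to 55.9 in wild-type and 29.3 to 161 in null cells, and 161 was the highest of the null list. MBD scores were mostly low, 3.69 to 29.5 in the WT-named list, with a median of 13.9 against 21.7 over all members. The value 3.69 was the lowest of all members. The stretch held 7 null H3K4me3 summits, 22 and 17 MBD summits, 18, 20 and 13 Ctcf summits and 4 coding genes, and for 4 of the 6 members the nearest annotated gene was a pseudogene. Whether reads from near-identical copies of this stretch, or its level in the control libraries, contribute to these summits was not tested, since the lists hold summits only.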

How the data were processed

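H3K4me3, H3K27me3, Smchd1 and Ctcf ChIP-seq and MBD-seq of neural stem cells are used here as the 11 peak summit lists that the authors deposited, each 1 bp wide on mm10 and, per the labels, pooled over its group. The score deposited by the authors is a −log10 p-value or q-value from MACS2 (version 2). Which of these it is, and the aligner, are not given in the sources used here. Bases were called with CASAVA 1.4, per the submitters' processing notes. The lists hold no read numbers, so depth per sample is unknown.

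Members, gene lists and comparisons were chosen with earlier results of these data known. Nearest distances, shares and exact (Clopper-Pearson) 95% intervals came from scripts that used scipy 1.17.1, pandas 2.3.3 and numpy 2.4.6 under Python 3.11.15. Plots were drawn in matplotlib 3.10.9. No p-value was computed. Genes (49943, of them 21887 coding) and 32851 promoter windows of 27025 genes came from RefSeq tables on GRCm38. The 3 members on chromosome 18 were not compared with promoter windows, and windows that could not be scored were left out. Unplaced contigs held no member. On simulated lists, distances and window counts were right in 300 of 300 cases. Members were right in 20 of 20, where only the WT-named MBD distance could fail the rule.

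Named genes are those of the imprinted lists with a member, the coding genes nearest to the 10 highest members of the wild-type H3K4me3 list and of each MBD list, those near members with Smchd1 (5e-4), H3K27me3 or all 3 Ctcf lists within 250 bp, genes of other lists with a member, the members nearest to each limit and the longest runs. Imprinted genes without a member, genes near the added Smchd1 summits of the 5e-3 list and the chromosome 8 stretch were chosen after their values were seen. Alternatives were other distances, stricter scores, other gene distances, counting from the null list and leaving out the chromosome 8 stretch.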

Additional observations from a re-analysis of the deposited data

How the results depend on the processing

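Of 91 recomputed values, 79 stayed within tolerance and 12 moved. The tolerance was a factor of 1.5 for counts and the exact 95% interval of the main value for shares, which is wide where few members are counted. With MBD summits within 250 bp there were 77 members, of which 46.8% were near gene ends and 0 near Smchd1 (5e-4), and 9 imprinted genes had one. With MBD within 1 kb there were 794 members, 66.0% near gene ends and 4.16% at imprinted genes. The share near gene ends was 46.6% within 1 kb, 65.3% within 5 kb and 47.3% when counted from the null list, which was chosen after seeing the data. Some shares within tolerance changed by a factor above 1.5. Smchd1 (5e-4) went from 1.70% to 0.504% with MBD within 1 kb, under its background of 0.670%, and Smchd1 (5e-3) from 3.98% to 2.64% there and to 2.60% with MBD within 250 bp. Untransduced Ctcf went from 9.09% to 5.68% within 250 bp and to 5.88% without the chromosome 8 stretch. Imprinted genes with a member numbered 26, and 19 when counted from the null list. Ctcf within 250 bp was found for 6.82% of members in the non-silencing list and for 6.82% in the null list. No paired analysis was possible because each list pools the libraries of its group and carries no replicate, and for the same reason no replicate could be left out. Depth limits what is not listed: a summit absent from a list may be present below its threshold.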

Other observations

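Beside the members, 32 wild-type H3K4me3 summits had both MBD lists within 500 bp but no null H3K4me3 summit within 1 kb, and 52 null summits had both MBD lists but no wild-type summit. The highest of the first kind lay in Metrn, a secreted neurotrophic factor gene (score 21.8), and near Gipc2, a PDZ-domain protein gene (14.8). The highest of the second kind lay in the imprinted gene Impact at 12972428 of chromosome 18 (14.2), near the member at 12973641. Others of the second kind lay in Zfp978 (10.1 at 147124932 of chromosome 4) and at the end of the chromosome 8 stretch (10.5 at 20557907), places that also held members. Each of these 2 kinds depends on a threshold being passed in 1 pooled list and not in the other, so no difference between the genotypes is drawn from them.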
